A study of Mus musculus with 4 samples.

Results

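Small nuclear RNAs (snRNAs) and small nucleolar RNAs (snoRNAs) were followed through 4 libraries of liver mitochondrial RNA, 1 library per group. The members are the features that the deposited table types as snRNA or snoRNA and that reached at least 10 rounded counts in at least 1 library. They number 52 of the 37819 features of the table, and were grouped by the gene symbol of the table. Among the 26 snRNA members U1 has 12 copies, U2 has 11, U4 has 2 and U5 has 1. The 26 snoRNA members are 5 copies of U3, 9 SNORA, 4 SNORD and 7 SCARNA genes and 1 gene named snoU89. The table holds 3032 snRNA and snoRNA features in all, of which 2852 had no count in any library.

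The libraries came from mice of postnatal week 7. The ob mice have the genotype B6.Cg-Lepob/J, with a mutation of leptin, the satiety hormone. The NASH mice are labelled wild type-NASH (non-alcoholic steatohepatitis), and the labels name no diet or treatment. The db mice are labelled BKS.Cg-Dock7m+/+Leprdb/J, with a mutated leptin receptor, while their strain label reads C57BL/6J. The wild-type mice are C57BL/6J. The series set out to compare non-coding RNAs of liver mitochondria between these disease models. The labels say neither how many animals went into a library nor how the mitochondria were purified.

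snRNAs are the RNA cores of the spliceosome, the nuclear machine that removes introns from pre-messenger RNA. U1 pairs with the 5′ splice site, U2 pairs with the branch site, and U4 joins with U6 and U5 in the particle that enters the spliceosome after them. snoRNAs guide chemical modification of ribosomal RNA in the nucleolus: box C/D RNAs (SNORD) guide methylation and box H/ACA RNAs (SNORA) guide pseudouridylation. U3 is a box C/D RNA that guides no modification and acts in cutting the ribosomal RNA precursor. SCARNAs of Cajal bodies, a nuclear compartment, guide modification of the snRNAs. All of these RNAs are transcribed from nuclear genes, and most snoRNAs are cut out of introns of host genes.

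The ob library stood apart from the others. Library totals were 1000306 counts in ob, 529815 in NASH, 1005915 in db and 627890 in wild-type, and 4744, 1238, 2895 and 1368 features reached 10 counts in the same order. Levels are given as CPM, counts per 1000000 of the library after TMM scaling (trimmed mean of M-values). The TMM factors were 1.51 in ob, 0.921 in NASH, 1.05 in db and 0.687 in wild-type. Scaling moved all features together: the median log2 difference of the 5347 features tested between ob and wild-type was 0.41 with TMM and 1.41 with plain library totals. Between NASH and wild-type it was -0.14 with TMM and 0.98 with totals counted without the features resembling mitochondrial genes. A count of 0 allows a level of up to 1.99 CPM in ob, 6.15 in NASH, 2.84 in db and 6.95 in wild-type, which is 3 counts in each library. With 1 library per group nothing has a replicate check, and ranges in parentheses are exact 95% counting intervals that compare libraries, not conditions. Comparisons with wild-type share the wild-type library. In bulk RNA, fewer cells or nuclei of a type and less RNA in each cannot be told apart. The labelled tissue was checked with 9 hepatocyte markers, of which 0 had no count in any library, and albumin (Alb) had 42417 counts in ob, 2225 in NASH, 102012 in db and 16453 in wild-type.

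The ob library alone put nearly all members on the list. At least 10 counts were reached by 52 members in ob, 4 in NASH, 4 in db and 0 in wild-type, and the 4 in NASH and db are the copies of U3 named Rnu3b1 to Rnu3b4. So 48 of 52 members (92.3%) passed through ob alone, against 2020 of the 5347 features of all types that passed the same filter (37.8%). At 0 rounded counts were 0 members in ob, 20 in NASH, 10 in db and 18 in wild-type. Just inside the threshold in ob lay SNORA70 with 9.87 expected counts, U5 and the U2 copy Gm25360 with 10 each, Snord15a with 10.4 and SCARNA21 with 11.05. Just outside lay SNORA14 with 9.03, SNORD97 with 8.5, SNORA73 with 8, and SNORA55 and Snora23 with 7 each. Since ob counts chose the members, their level in ob against the other libraries is a description of the choice as well as of the RNA.

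All families but U5 and snoU89, which had 0 counts in wild-type, could be set as a ratio, and each was higher in ob than in wild-type with an interval above 1. The snRNA members summed to 729 counts in ob, 27 in NASH, 52 in db and 26 in wild-type. That is 484 CPM in ob, 55.4 in NASH, 49.2 in db and 60.3 in wild-type, a fold of 8.03 in ob over wild-type (5.44 to 12.4). The snoRNA members summed to 1486 counts in ob, 105 in NASH, 91 in db and 31 in wild-type. That is 987 CPM in ob, 215 in NASH, 86.1 in db and 71.8 in wild-type, a fold of 13.7 in ob over wild-type (9.64 to 20.3). The ob library was highest in both classes, and for snoRNAs NASH lay between ob and the other libraries. Under plain library totals the folds in ob were larger, 17.6 for snRNAs and 30.1 for snoRNAs.

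**Figure D1:**
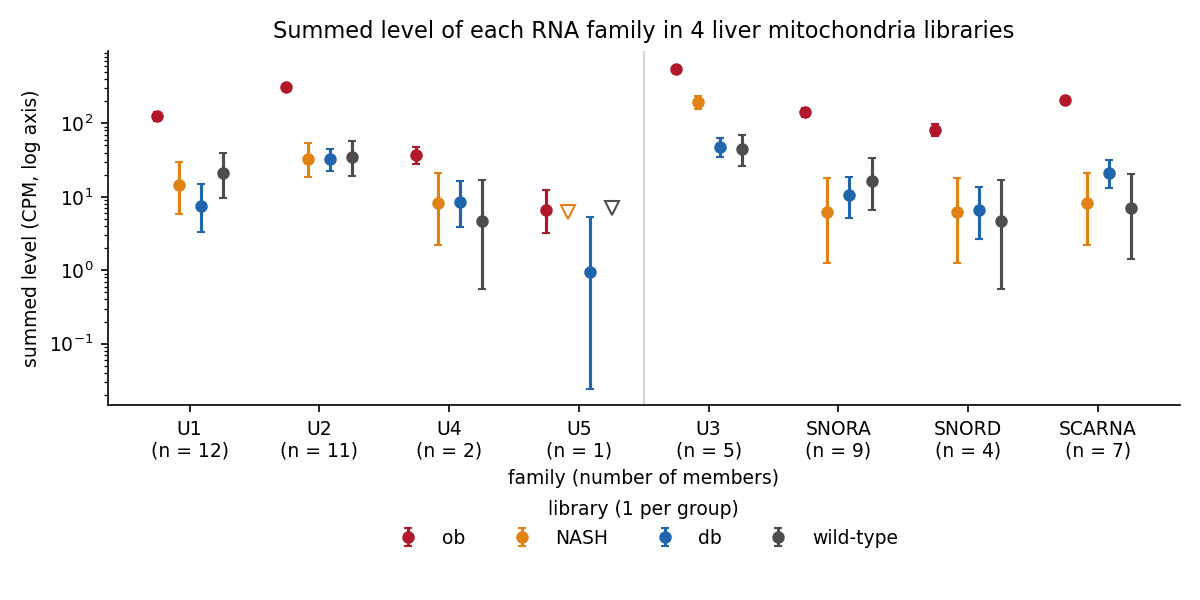
Summed level of each family (CPM, log axis) in ob, NASH, db and wild-type, with 95% Poisson counting intervals and 1 library per group. Open triangles mark 0 counts and sit at the level that 3 counts would give. The ob library was highest in every family drawn but U5, where its 6.64 CPM lie under the level of 6.95 CPM that 0 counts allow in wild-type, and U3 was the family in which NASH (195 CPM) stood apart from db (47.3 CPM) and wild-type (44.0 CPM).

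Of the 52 members 51 were at least 2-fold higher in ob than in wild-type on the log2(CPM + 1) scale and 0 were lower, where 34.5% of the 5347 features of all types were higher. Among the 2020 features that had 10 counts in ob alone 55.1% were higher, so a member chosen through ob was likely to be called and nothing is read from the count. With the interval also excluding equality, 33 members were higher, against 14.9% of all features tested and 19.7% of those with 10 counts in ob alone. The median log2 difference of the members was 2.90, or 1.72 with counts of 0 set to 3, and that of all features tested was 0.41. No median was taken for the features with 10 counts in ob alone, so nothing is read from this difference. These calls also count copies of U1, U2 and U3 that share reads as separate members. The member not called was SNORA53 (Gm24119), with 13 counts in ob, 0 in NASH, 1 in db and 3 in wild-type.

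U3 gave the most counts of any family. Its main form is encoded by 4 copies on mm10 chromosome 11, Rnu3b1 to Rnu3b4, which are identical over 215 bases in GENCODE M21, and a more distant gene, Rnu3a, lies on chromosome 10. The U3 sequences are shown because this family was higher in NASH than in wild-type. Capitals mark the box C motif TGATGA and the last CTGA, the letters of a box D motif. Rnu3b1 lies at chr11:87443237-87443451 (mm10, plus strand) and Rnu3a at chr10:40258467-40258680 (mm10, plus strand), as the GENCODE records place them, 1 base longer for Rnu3b1 and 2 bases longer for Rnu3a than the deposited table has them.
Rnu3b1: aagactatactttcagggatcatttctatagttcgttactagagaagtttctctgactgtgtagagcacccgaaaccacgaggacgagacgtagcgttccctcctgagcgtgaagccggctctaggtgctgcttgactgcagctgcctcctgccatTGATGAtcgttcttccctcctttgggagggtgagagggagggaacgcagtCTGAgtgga
Rnu3a: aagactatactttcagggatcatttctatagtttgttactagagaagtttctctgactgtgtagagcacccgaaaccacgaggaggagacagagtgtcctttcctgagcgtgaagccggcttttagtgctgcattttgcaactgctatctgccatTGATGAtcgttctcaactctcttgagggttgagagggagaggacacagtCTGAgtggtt
The genes share 187 of 219 aligned positions (85.4%).

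The U3 members summed to 825 counts in ob, 95 in NASH, 50 in db and 19 in wild-type. Their level was 548 CPM in ob (511 to 587), 195 in NASH (158 to 238), 47.3 in db (35.1 to 62.4) and 44.0 in wild-type (26.5 to 68.8). The intervals of db and wild-type overlapped, and those of ob and NASH overlapped with no other. U3 was 12.4-fold higher in ob than in wild-type (7.92 to 20.8), 4.42-fold higher in NASH (2.68 to 7.67), and at a ratio of 1.07 in db (0.623 to 1.93). With TMM factors computed without the ob library, the ratios to wild-type were 5.92 in NASH (3.59 to 10.3) and 0.919 in db (0.533 to 1.65). Each Rnu3b copy was given an even part of the shared reads, for Rnu3b1 202 expected counts in ob, 22.8 in NASH, 12.5 in db and 4.75 in wild-type, so which copy made the RNA is uncertain. Rnu3a, which can be told from them by sequence, had 17 counts in ob, 4 in NASH, 0 in db and 0 in wild-type.

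Under TMM scaling, U3 was the only family of members whose ratio of NASH to wild-type had an interval excluding 1. Without U3, the members summed to 37 counts in NASH and 38 in wild-type, a ratio of 0.861 (0.533 to 1.39). The snoRNA members as a whole were 2.996-fold higher in NASH than in wild-type (1.99 to 4.63), but without U3 they had 10 counts in NASH and 12 in wild-type, a ratio of 0.737 (0.285 to 1.86). The share of U3 in the counts of all members does not depend on scaling. It was 72.0% in NASH (63.5 to 79.4), against 37.2% in ob (35.2 to 39.3), 35.0% in db (27.2 to 43.4) and 33.3% in wild-type (21.4 to 47.1). The NASH interval overlapped with none of the other 3, and those of ob, db and wild-type overlapped each other. Of the 52 members 11 were at least 2-fold higher in NASH than in wild-type, where 20.3% of all features tested were, and 8 were lower, where 31.8% were. With the interval also excluding equality 4 members were higher, the 4 Rnu3b copies, which share their reads and are 1 measurement, against 4.66% of all features tested, and 0 were lower, against 14.2%.

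**Figure D2:**
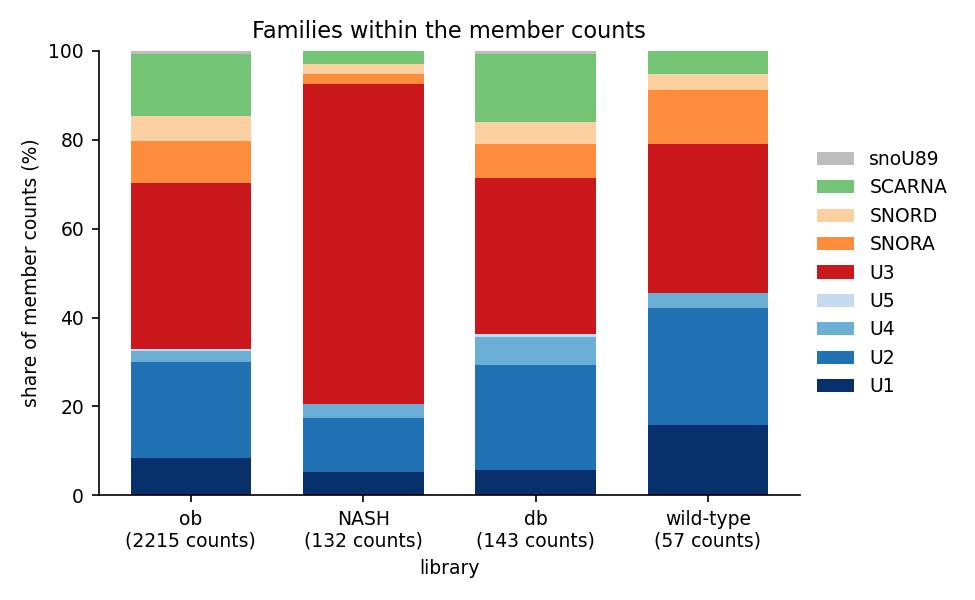
Share of each family (%, stacked bars) in the counts of all 52 members in ob, NASH, db and wild-type, with the number of counts under each bar. U3 takes 72.0% of the member counts in NASH, against 33.3% to 37.2% in the other libraries.

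Markers of other cells differed between NASH and wild-type beside U3. The 7 macrophage markers summed to 867 CPM in NASH and 257 CPM in wild-type, a fold of 3.37 (2.73 to 4.19), with 6 at least 2-fold higher, 0 lower and 0 at 0 counts. The 5 stellate cell markers summed to 523 CPM in NASH and 246 CPM in wild-type, with 2 higher and 1 lower. The 9 hepatocyte markers summed to 6401 CPM in NASH and 50740 CPM in wild-type, with 9 lower. Of all features tested 20.3% were at least 2-fold higher in NASH than in wild-type and 31.8% were lower. The part of these cell types in the U3 level was not tested. The 9 features resembling mitochondrial genes took 75.5% of counts in NASH and 53.2% in wild-type, and with library totals counted without them U3 was 11.3-fold higher in NASH (6.86 to 19.6), beside a ratio of 2.35 for the snRNA members (1.32 to 4.19).

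U2 was the second family by counts. Its members summed to 477 counts in ob, 16 in NASH, 34 in db and 15 in wild-type, or 317 CPM in ob, 32.8 in NASH, 32.2 in db and 34.8 in wild-type. It was 9.11-fold higher in ob than in wild-type (5.47 to 16.4), while the ratios to wild-type were 0.944 in NASH (0.437 to 2.05) and 0.926 in db (0.491 to 1.83). NASH, db and wild-type lay within 3 CPM of each other, inside their counting intervals. With library totals counted without the features resembling mitochondrial genes, U2 in NASH over wild-type turned to 2.41 (1.12 to 5.24). Of the copies 2 sequences are shown here because reads that cover the 1 base at which they differ can tell them apart. Capitals mark GTAGTA, the stretch that pairs with the branch site, and the base that differs, G109C, counted from 1 at the 5′ end of Rnu2-10, with Gm23472 as the other sequence. Rnu2-10 lies at chr11:101658238-101658428 and Gm23472 at chr1:72236946-72237136 (mm10, both plus strand).
Rnu2-10: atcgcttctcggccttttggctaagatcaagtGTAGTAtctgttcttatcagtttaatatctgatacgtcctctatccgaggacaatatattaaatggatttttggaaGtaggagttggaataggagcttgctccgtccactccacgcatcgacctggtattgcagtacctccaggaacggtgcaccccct
Gm23472: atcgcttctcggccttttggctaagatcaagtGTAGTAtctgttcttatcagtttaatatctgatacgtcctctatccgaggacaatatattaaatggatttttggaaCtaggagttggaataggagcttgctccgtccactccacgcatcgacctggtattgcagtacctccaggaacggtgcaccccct

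The 5 copies of the chromosome 11 cluster (Rnu2-10, Gm23849, Gm23971, Gm24950 and Gm26316) summed to 289 counts in ob, 15 in NASH, 26 in db and 9 in wild-type. A second group held 4 copies, Gm23472, Gm24497 and Gm25939 on chromosome 1 and Gm23444 on chromosome 11. It summed to 163 counts in ob, 1 in NASH, 8 in db and 6 in wild-type. Gm23444 is identical to Gm23472, but Gm24497 and Gm25939 are other sequences that were not compared with Rnu2-10. In the cluster Gm26316 differs from Rnu2-10 at C170T. So the groups are not known to differ by the shown base alone. This split was chosen after the values were seen. The cluster took 63.9% of the counts of both groups in ob (59.3 to 68.4), 93.8% in NASH (69.8 to 99.8), 76.5% in db (58.8 to 89.3) and 60.0% in wild-type (32.3 to 83.7). The NASH interval lay wholly above that of ob and overlapped with those of db and wild-type, and it rests on 16 counts. How reads that miss the differing base were divided is not given, so these shares may depend in part on that division. Of single copies, Gm26316 had 40.1 expected counts in ob, 2.4 in NASH, 4.4 in db and 1.73 in wild-type. Gm23472 and Gm23444 had 41.4 each in ob, 0.25 in NASH, 1.95 in db and 1.71 in wild-type, and Gm24497 and Gm25939 had 41.1 and 38.7 in ob. The cluster copies were given even parts, 62.3 expected counts each in ob for the 4 identical ones, 3.15 in NASH, 5.40 in db and 1.73 in wild-type. Gm22973, with 15 counts in ob and 0 in NASH, db and wild-type, differs from Rnu2-10 at 9 of 191 bases.

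U1 begins with the letters that pair with the 5′ splice site, shown in capitals from Rnu1a1 at chr11:87422867-87422877 (mm10, plus strand).
Rnu1a1: atACTTACCTG
The U1 members summed to 187 counts in ob, 7 in NASH, 8 in db and 9 in wild-type, or 124 CPM in ob, 14.4 in NASH, 7.57 in db and 20.9 in wild-type. U1 was 5.95-fold higher in ob than in wild-type (3.07 to 13.2). The ratios to wild-type were 0.688 in NASH (0.218 to 2.08) and 0.363 in db (0.122 to 1.06), both with intervals that include 1. With TMM factors computed without ob, the db ratio was 0.311 (0.104 to 0.907), so the interval then excludes 1. Of the 12 copies 11 had between 13.8 and 14.7 expected counts in ob, 0.591 in NASH, 0.689 in db and 0.598 in wild-type, and 7 of them are identical in sequence. Gm22513 on chromosome 12 stood apart with 28.5 expected counts in ob, 0.5 in NASH, 0.417 in db and 2.42 in wild-type. U2 took 71.8% of the summed U1 and U2 counts in ob (68.2 to 75.2), 69.6% in NASH, 81.0% in db and 62.5% in wild-type, all with overlapping intervals.

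The other spliceosomal RNAs were sparse. U4 had 55 counts in ob, 4 in NASH, 9 in db and 2 in wild-type and was 7.88-fold higher in ob than in wild-type (2.08 to 66.7). Its copies lie side by side on chromosome 5, with 29.5 expected counts in ob, 3 in NASH, 6 in db and 1 in wild-type for Gm24407, and 25.5 in ob, 1 in NASH, 3 in db and 1 in wild-type for Gm24265. U5 (Gm25099) had 10 counts in ob, 0 in NASH, 1 in db and 0 in wild-type. Under TMM scaling this gives no bound above 1 for its fold in ob, with a lower limit of 0.642. That limit was 1.41 with plain library totals and between 0.799 and 0.923 with the other scalings. Over all 11 U5 features it was 1.03 under TMM scaling. The table lists 953 features of U6, the catalytic snRNA, and together they had 6 counts in ob, 1 in NASH, 0 in db and 0 in wild-type. The minor spliceosome RNAs U11, U12 and U6atac and the histone processing RNA U7 had at most 2 counts each in any library, so these RNAs could not be compared at this depth.

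**Figure D3:**
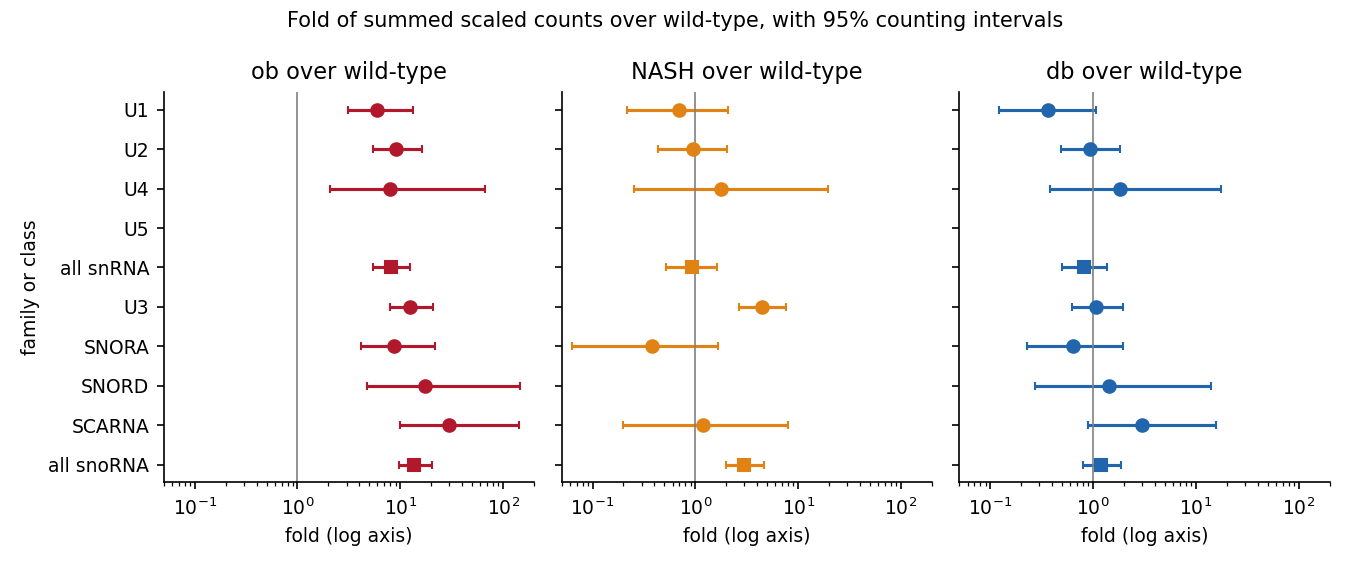
Fold of the summed scaled counts (log axis) in ob, NASH and db over wild-type for each family and both classes, with exact binomial 95% counting intervals. Squares are classes and circles are families. No point is drawn where a fold would be a bound or both libraries were at or under 3 counts. All intervals drawn for ob lie above 1, and in NASH those of U3 (4.42) and of all snoRNAs do.

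SCARNAs had the highest ratio of any family between ob and wild-type. They summed to 310 counts in ob, 4 in NASH, 22 in db and 3 in wild-type, or 206 CPM in ob, 8.20 in NASH, 20.8 in db and 6.95 in wild-type. The fold in ob over wild-type was 29.6 (10.04 to 144), an interval that overlaps with that of every other family. In db the ratio to wild-type was 2.995 (0.900 to 15.6), but the interval excluded 1 with plain library totals (4.58, 1.38 to 23.9), median-of-ratios factors (4.11, 1.24 to 21.5) and the submitters' scaling (4.25, 1.28 to 22.2).

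The leading SCARNAs are a pair in introns of Atg16l1, an autophagy gene on chromosome 1. SCARNA6 (Gm25395) had 108 counts in ob, 0 in NASH, 6 in db and 0 in wild-type. Scarna6 had 40 counts in ob, 0 in NASH, 4 in db and 0 in wild-type. Together they were at least 14.1-fold higher in ob than in wild-type and 10.4-fold lower in db than in ob (5.49 to 22.1). They share 62.6% of aligned positions, so their reads are largely distinct, and they are shown because both were high in ob and at 0 in NASH and wild-type. SCARNA6 (Gm25395) lies at chr1:87776938-87777209 and Scarna6 at chr1:87784556-87784820 (mm10, both plus strand), with TGATGA and the last CTGA in capitals.
Gm25395: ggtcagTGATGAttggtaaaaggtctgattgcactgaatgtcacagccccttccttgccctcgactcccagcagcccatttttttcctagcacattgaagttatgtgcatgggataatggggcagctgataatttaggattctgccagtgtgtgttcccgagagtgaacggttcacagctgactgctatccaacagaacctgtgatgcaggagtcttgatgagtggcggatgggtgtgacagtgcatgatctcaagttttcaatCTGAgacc
Scarna6: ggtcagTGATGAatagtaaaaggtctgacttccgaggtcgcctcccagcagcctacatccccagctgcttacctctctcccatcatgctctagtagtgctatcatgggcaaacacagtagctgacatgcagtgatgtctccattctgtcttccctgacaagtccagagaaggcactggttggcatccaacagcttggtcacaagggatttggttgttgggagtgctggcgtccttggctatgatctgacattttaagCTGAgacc

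Scarna2, whose human counterpart guides methylation of U2, is 414 bases long, the longest member, and has no annotated host gene. It had 70 counts in ob, 1 in NASH, 3 in db and 2 in wild-type, and was 10.03-fold higher in ob than in wild-type (2.67 to 84.4). Scarna10, in Ncapd2, a condensin gene, had 41 counts in ob, 1 in NASH, 4 in db and 0 in wild-type. With 3 counts in place of that 0 it was 3.92-fold higher in ob than in wild-type (lower limit 3.04). The other SCARNA members had 11 to 27 counts in ob and at most 4 in any other library. snoU89 (Gm23547), in Phb2, a prohibitin gene, had 15.5 expected counts in ob, 0 in NASH, 1.5 in db and 0 in wild-type.

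Box H/ACA RNAs (SNORA) summed to 213 counts in ob, 3 in NASH, 11 in db and 7 in wild-type. They were 8.72-fold higher in ob than in wild-type (4.16 to 22.0), and the ratios to wild-type were 0.379 in NASH (0.0633 to 1.66) and 0.642 in db (0.227 to 1.95). Over all 1041 SNORA features, members or not, counts were 4 in NASH and 13 in wild-type. That is a ratio of 0.272 (0.0647 to 0.881), with an interval below 1. Snora73b, a form of the RNA also called U17, which acts in ribosomal RNA processing, had 43 counts in ob, 2 in NASH, 3 in db and 0 in wild-type. With 3 counts in place of that 0 it was 4.11-fold higher in ob than in wild-type (lower limit 3.20). Its host genes Rcc1 and Snhg3 had 26 counts in ob, 2 in NASH, 6 in db and 2 in wild-type together. It is shown as the H/ACA member with the most counts summed over the 4 libraries, though SNORA48 (Gm22988) had more in ob, with the ACA that lies 3 bases from the end in capitals (chr4:132352322-132352526, mm10, minus strand), and Gm17300 is annotated on the opposite strand there.
Snora73b: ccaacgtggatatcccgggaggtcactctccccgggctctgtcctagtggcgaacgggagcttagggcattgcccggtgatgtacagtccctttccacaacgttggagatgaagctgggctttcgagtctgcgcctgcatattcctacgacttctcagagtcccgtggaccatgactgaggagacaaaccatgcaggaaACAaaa
SNORA48 (Gm22988), in Eif4a1, a translation initiation gene, had 46.3 expected counts in ob, 0.5 in NASH, 0 in db and 0.5 in wild-type. A second SNORA48 (Gm25291) in Sec24a had 19.9 in ob, 0 in NASH, 5 in db and 0 in wild-type. The copies are 97.2% identical, so reads may have been divided between them. Snora74a had 35 counts in ob, 0 in NASH, 0 in db and 2 in wild-type, and was 5.01-fold higher in ob than in wild-type (1.29 to 43.0).

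Box C/D RNAs other than U3 (SNORD) summed to 122 counts in ob, 3 in NASH, 7 in db and 2 in wild-type. They were 17.5-fold higher in ob than in wild-type (4.74 to 146), and the db ratio to wild-type was 1.43 (0.272 to 14.1). No ratio is given for NASH, where both libraries were at or under 3 counts. Snord17, in an intron of Snx5, a sorting nexin gene, gave the most of them, with 59 counts in ob, 3 in NASH, 4 in db and 2 in wild-type. It is the longest SNORD member, at 238 bases, and lies at chr2:144265979-144266216 (mm10, minus strand), with TGATGA and the last CTGA in capitals.
Snord17: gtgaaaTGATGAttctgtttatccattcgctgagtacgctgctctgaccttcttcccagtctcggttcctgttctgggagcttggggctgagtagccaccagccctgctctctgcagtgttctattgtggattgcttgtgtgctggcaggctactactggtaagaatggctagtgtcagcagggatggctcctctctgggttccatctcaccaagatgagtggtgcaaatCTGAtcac
SNORD10 (Gm25835), also in Eif4a1, had 27 counts in ob and 0 in NASH, db and wild-type. With 3 counts in wild-type in place of 0 it was 2.58-fold higher in ob (lower limit 1.96). Snord15b, in the ribosomal protein gene Rps3, had 26 counts in ob, 0 in NASH, 1.5 expected counts in db and 0 in wild-type.

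The db and ob libraries had nearly equal totals, though fewer features reached 10 counts in db. Of the 52 members 52 were at least 2-fold lower in db than in ob, where 30.2% of all features tested were, and 49 with the interval also excluding equality, where 22.0% were. The members were chosen through ob, so this count follows from the rule in part: among the 2020 features with 10 counts in ob alone 65.9% were lower in db, and 47.2% with the interval also excluding equality. Summed, the snRNA members were 9.84-fold lower in db than in ob (7.42 to 13.3) and the snoRNA members 11.5-fold lower (9.27 to 14.3). Against wild-type, the ratios in db were 0.817 for snRNAs (0.501 to 1.36) and 1.20 for snoRNAs (0.790 to 1.87). These depend on the scaling. For snoRNAs the ratio was 1.83 with plain library totals (1.21 to 2.85), 1.65 with median-of-ratios factors (1.08 to 2.56) and 1.70 with the submitters' scaling (1.12 to 2.65), all with intervals above 1. For snRNAs it turned to 1.25, 1.12 and 1.16 under the same scalings, with intervals that include 1. Of the 52 members 9 were at least 2-fold higher in db than in wild-type, where 28.8% of all features tested were, and 5 were lower, where 21.5% were. With the interval also excluding equality 0 were higher and 0 lower, where 14.8% and 10.4% were.

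In all, 2215 member counts were found in ob, 132 in NASH, 143 in db and 57 in wild-type. As shares of the library that is 0.221% in ob (0.212 to 0.231), 0.0249% in NASH (0.0208 to 0.0295), 0.0142% in db (0.0120 to 0.0167) and 0.00908% in wild-type (0.00688 to 0.0118). Features of these types that stayed under 10 counts in each library were also highest in ob, with counts capped by the threshold. The 1576 such snoRNA features summed to 153 counts in ob, 2 in NASH, 13 in db and 8 in wild-type, a fold of 5.48 in ob over wild-type (2.71 to 12.9). The 1404 such snRNA features summed to 26 counts in ob, 4 in NASH, 2 in db and 1 in wild-type.

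Length set the members apart from other features of their types, though length is not independent of a rule on counts. The snoRNA members had a median annotated length of 213 bases and the other 1576 snoRNA features 126. Of the 507 snoRNA features of at most 100 bases 0 are members, and of the 159 from 101 to 120 bases 0. Of the 875 from 121 to 150 bases 9 are members, and of the 33 over 200 bases 16 are (48.5%). The SNORD members had a median of 146.5 bases and the other 396 SNORD features 79, and the SCARNA members had a median of 275 bases and the other 39 SCARNA features 135. Among snRNAs 23 of the 213 features from 151 to 200 bases are members (10.8%) and 1 of the 857 from 101 to 120 bases. Longer features collect more counts at the same number of molecules, and the labels do not state a size selection of the libraries. The part of either in which RNAs were detected was not tested.

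**Figure D4:**
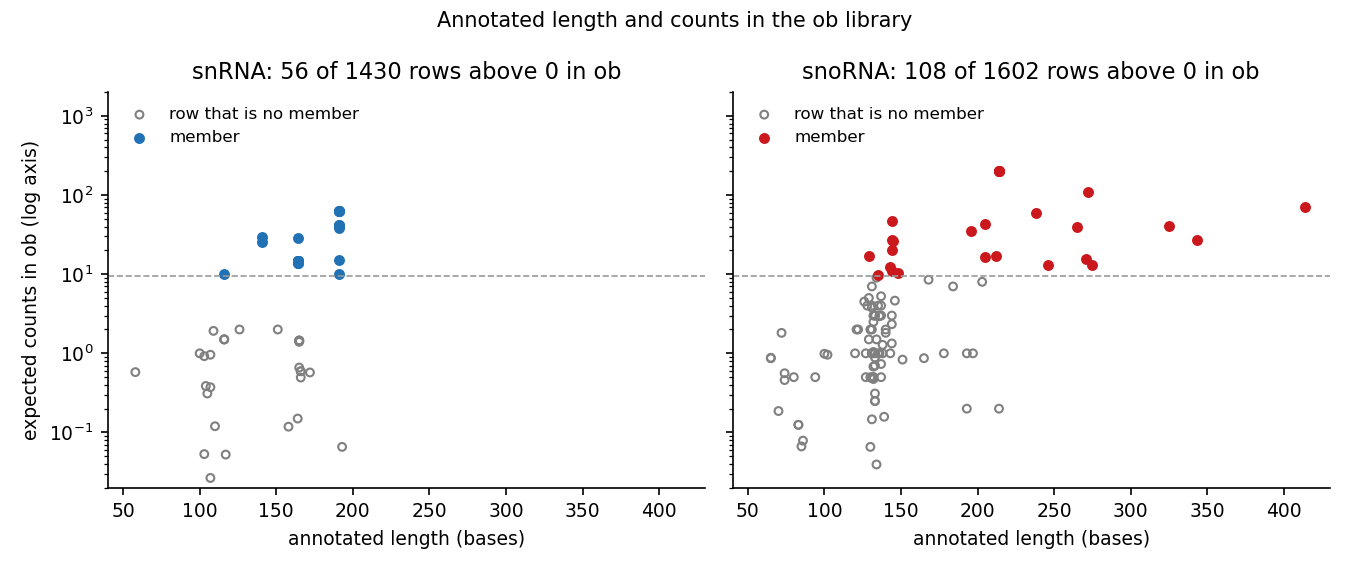
Annotated length (bases) against expected counts in the ob library (log axis) for the 56 of 1430 snRNA and 108 of 1602 snoRNA features above 0 in ob. Filled points are members, open points are other features, and the dashed line is the rounding limit of 10 counts. No feature of at most 100 bases reaches the line.

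U1 and U2 members all hold the letters through which these RNAs pair with introns, while many other copies of these families do not. Motifs were searched on the RNA strand only, in GENCODE M21 sequences. ACTTACCTG, the U1 splice site pairing stretch, is in 12 of 12 U1 members and in 55 of 209 U1 features with a sequence (26.3%), and in 4.03% of all snRNA features. GTAGTA is in 11 of 11 U2 members and in 32 of 54 U2 features (59.3%). ATTTNTG, the letters of the site that binds Sm proteins, is in 25 of 26 snRNA members and in 280 of 1364 snRNA features (20.5%). TGATGA is in 5 of 5 U3, 4 of 4 SNORD and 5 of 7 SCARNA members and in 25.7% of all snoRNA features, but 326 of 394 SNORD features (82.7%) hold it. ACA at 3 bases from the end is in 6 of 9 SNORA members and in 254 of 1036 SNORA features (24.5%). A match is a description of the letters, not of function, and copies of 1 family are not independent.

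The snoRNAs can be set beside their host genes. Every snoRNA member outside U3 passed the filter through its ob count alone, while hosts were not chosen by their counts, so the values in ob describe the choice of snoRNAs as well and are not a test. Outside U3 there are 21 snoRNA members, of which 17 lie within host genes that have a row in the table (14 hosts), and 11 of these lie in introns only. These 11 snoRNAs summed to 370 counts in ob, 6 in NASH, 29 in db and 6 in wild-type. Their 11 hosts summed to 355 counts in ob, 159 in NASH, 133 in db and 85 in wild-type. The snoRNAs were 17.7-fold higher in ob than in wild-type (8.04 to 48.5) and the hosts were at a ratio of 1.20 (0.942 to 1.53). With plain library totals the ratios were 38.7 for the snoRNAs and 2.62 for the hosts. In NASH the snoRNAs were at a ratio to wild-type of 0.885 (0.236 to 3.31) and the hosts were 1.65-fold higher (1.26 to 2.18).

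Single pairs varied. Atg16l1, the host of the SCARNA6 pair, had 29 counts in ob, 2 in NASH, 2 in db and 4 in wild-type, against 148 counts of its snoRNAs in ob and 0 in wild-type. Snx5, the host of Snord17, had 14 counts in ob, 31 in NASH, 10 in db and 13 in wild-type, and Ncapd2, the host of Scarna10, had 4 in ob, 5 in NASH, 4 in db and 3 in wild-type. The snoRNA outnumbered its host in 7 of 17 pairs in ob, 0 in NASH, 2 in db and 0 in wild-type. Rps3, the host of Snord15a and Snord15b, had 53 counts in ob, 41 in NASH, 29 in db and 23 in wild-type, more than either of its snoRNAs in every library. Eif4a1 had 89 counts in ob, 32 in NASH, 25 in db and 13 in wild-type and was 1.96-fold higher in ob than in wild-type (1.09 to 3.83).

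**Figure D5:**
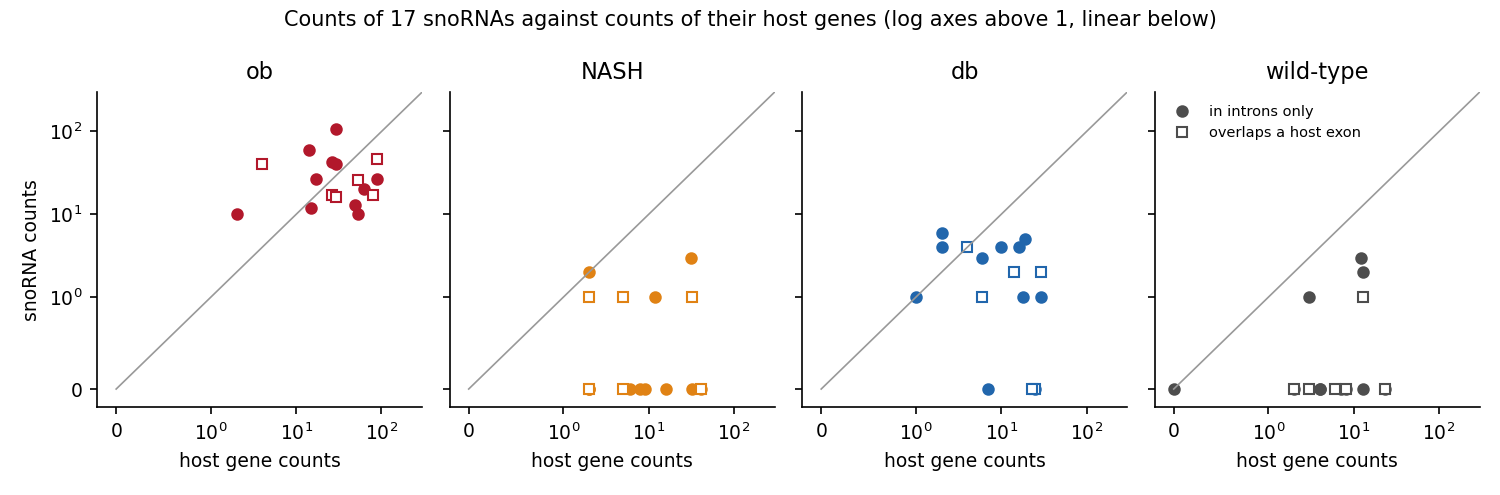
Counts of 17 snoRNAs (vertical axis) against counts of their host genes (horizontal axis) in ob, NASH, db and wild-type, on axes that are logarithmic above 1 and linear below. Filled circles lie in introns only, open squares overlap an annotated host exon, and the line marks equal counts. In ob 7 points lie above the line, in db 2, and in NASH and wild-type 0.

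Protein partners of these RNAs were measured through their messenger RNAs. Of 29 proteins of the spliceosomal particles 6 passed the filter, of which 2 were at least 2-fold higher in ob than in wild-type and 1 lower, beside 34.5% and 15.5% of all features tested. The higher ones, Snrpa1 and Prpf6 with 12 counts each in ob, passed the filter through ob alone. Over the 28 with a row in the table the messenger RNAs summed to 144 CPM in ob, 283 in NASH, 116 in db and 202 in wild-type, a ratio of 0.715 in ob (0.555 to 0.928) that turned to 1.57 with plain library totals. Sf3b1, a U2 particle protein, had 43 counts in ob, 20 in NASH, 11 in db and 10 in wild-type, and Prpf8, the core protein of the spliceosome, had 32 in ob, 19 in NASH, 20 in db and 10 in wild-type. Of 18 proteins of snoRNA particles and related factors 2 passed, nucleolin (Ncl), with 33 counts in ob, 38 in NASH, 17 in db and 23 in wild-type, and nucleophosmin (Npm1), with 19 in ob, 14 in NASH, 14 in db and 17 in wild-type. Both were at least 2-fold lower in ob than in wild-type after scaling, and the 18 summed to a ratio of 0.375 (0.278 to 0.507), or 0.821 with plain library totals. Of 20 known snoRNA host transcripts 11 passed, with 2 higher and 8 lower in ob, beside the same 34.5% and 15.5%, and the higher ones, Gas5 and Snhg3, passed through ob alone. The 16 of them with a row in the table had a summed ratio of 0.417 (0.363 to 0.480), or 0.914 with plain library totals. Ncl and Nop56 are on both this list and that of the snoRNA particle proteins, so the ratios are not independent. The 14 hosts of the snoRNA members, each counted once, were at 1.33 in ob (1.07 to 1.67), or 2.91 with plain library totals. In NASH the summed ratios to wild-type were 1.40 for the spliceosomal proteins (1.07 to 1.86), 0.983 for the snoRNA particle proteins (0.720 to 1.34; 1.32 with plain library totals) and 1.30 for the host transcripts (1.13 to 1.49).

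Several other nuclear RNAs were also high in ob. Of 8 RNAs listed as retained in the nucleus 5 passed the filter. The list includes Gas5, which is also counted above among the snoRNA host transcripts. In ob 4 of these exceeded wild-type at least 2-fold, beside 34.5% of all features tested, and 1 was lower. Of the 4, Firre (11 counts in ob) and Gas5 (17 counts in ob) passed the filter through ob alone, so the number is no support. The whole list summed to 9494 CPM in ob, 187 in NASH, 365 in db and 243 in wild-type. Most of the sum in ob came from Neat1 and Malat1. Neat1, the scaffold RNA of nuclear paraspeckles, had 7450 counts in ob, 5 in NASH, 109 in db and 7 in wild-type. Malat1, an RNA of nuclear speckles, had 6797 counts in ob, 77 in NASH, 260 in db and 75 in wild-type. Meg3, the lower one, had 19 counts in ob, 5 in NASH, 15 in db and 20 in wild-type. RNase MRP RNA, which cuts the ribosomal RNA precursor in the nucleolus, had 1098 CPM in ob, 34.9 in NASH, 115 in db and 85.8 in wild-type and was 12.8-fold higher in ob than in wild-type (9.25 to 18.2). The 7SK RNA, which holds the transcription elongation factor P-TEFb inactive, was 2.27-fold higher in ob (1.78 to 2.93). RNase P RNA, the transfer RNA processing enzyme, was lower, at a ratio of 0.448 (0.339 to 0.596), or 0.982 with plain library totals. The signal recognition particle RNA of the cytoplasm had a ratio of 0.890 (0.882 to 0.897), which turned to 1.95 with plain library totals. The values from RNase MRP to the signal recognition particle sum all features of a symbol, not single genes. These number 2 for RNase MRP, 334 for 7SK, 20 for RNase P and 102 for the signal recognition particle. In NASH the ratios to wild-type were 0.767 for the summed nuclear-retained RNAs (0.573 to 1.02) and 0.406 for RNase MRP (0.215 to 0.740), beside 4.42 for U3. With totals counted without the features resembling mitochondrial genes these ratios were 1.96, 1.04 and 11.3. The part of nuclear RNA in the ob library was not tested.

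Blood cell RNA was also higher in ob. The 5 erythroid markers summed to 1801 CPM in ob, 22.6 in NASH, 38.8 in db and 167 in wild-type. Of these markers 5 of 5 were at least 2-fold higher in ob than in wild-type, beside 34.5% of all features tested. Alas2, the heme synthesis enzyme of red cells, was at 0 in NASH. Of the other lists, the macrophage markers had a summed ratio of 1.24 in ob (1.004 to 1.53), the stellate cell markers 0.898 (0.719 to 1.13) and the hepatocyte markers 0.722 (0.711 to 0.733). With plain library totals these ratios were 2.71, 1.97 and 1.58, so the last pair turned direction. The 5 endothelial markers had a ratio of 1.48 (1.05 to 2.14), or 3.25 with plain library totals, with Pecam1 at 0 in wild-type. The part of blood cells in the snRNA and snoRNA level was not tested.

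Per kilobase, U3 had the highest level of the families in every library. Levels per kilobase of annotated length, summed over members, were for U3 2560 CPM per kilobase in ob, 910 in NASH, 221 in db and 206 in wild-type. U2 followed with 1659 in ob, 172 in NASH, 169 in db and 182 in wild-type. In ob the order went on with SNORA at 845, U1 at 759, SCARNA at 695, SNORD at 455 and U4 at 259 CPM per kilobase. In db and wild-type U3 and U2 did not differ beyond their counting intervals, and in wild-type U1 came next at 127.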

How the data were processed

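Total RNA of liver mitochondria was sequenced in 4 libraries, with a strand-keeping kit after ribosomal RNA depletion, per the labels' protocols. The submitters' processing notes name Bowtie2 2.3.2, TopHat2 2.1.1, Trimmomatic 0.32, bcl2fastq 2.20 and build mm10. Not given in the sources used here are the counting program, the strand it counted and how it divided reads among copies. Per the file headers, the authors deposited raw expected counts per feature, with fractions where copies share reads, and TMM-normalized values on a log2 scale. The log2 values served only as an alternative scaling.

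Expected counts were rounded to whole counts, with 0.5 rounded up. The member filter and the calls used rounded counts per feature, and family sums were rounded once after summing, since 11 copies of U1 with 0.598 counts each would otherwise round to 1 each. Counts were scaled with edgeR 4.0.16 (R 4.3.3) from all 5347 features with at least 10 counts in a library. A call was a difference of at least 1 in log2(CPM + 1). Folds are ratios of scaled counts with exact binomial 95% intervals, levels have Poisson intervals and shares have Clopper-Pearson intervals. Reads carry no molecular identifiers and are not independent molecules, so all of these describe counting error alone. Where a library had 0 counts the fold was computed with 3 counts there, and the limit given beside it used the 0 itself. With both libraries at 3 counts or fewer no fold was computed. No test across groups was run, since there is 1 library per group. Fold code was tested on simulated data.

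Of the members 48 were named by their identifier in GENCODE M21 and 4 by position. Sequences came from the GENCODE M21 transcripts and were aligned with Biopython 1.88. Named with values are the 3 members of each family with the most counts, those with at least 30 counts in a library or at least 3 in each of NASH, db and wild-type, hosts of these, and for each list no more than its 4 members with the most counts. Other names were chosen after values were seen. The members and lists were chosen with earlier results of these data known. Python 3.11.15, numpy 2.4.6, pandas 2.3.3, scipy 1.17.1, matplotlib 3.10.9 and blastn 2.17.0 were used. Alternatives were other scalings, which for the lists and host genes were added after seeing the data, filters, pseudocounts, rounding and leaving out the leading member.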

Additional observations from a re-analysis of the deposited data

How the results depend on the processing

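No paired analysis was possible because each group has 1 library. The direction of the summed folds in ob held under all alternatives tried. Under plain library totals they were 17.6 for snRNAs, 30.1 for snoRNAs, 19.96 for U2 and 27.3 for U3 over wild-type, and 0.0709 for snRNAs and 0.0609 for snoRNAs in db over ob. With library totals counted without the features resembling mtDNA genes, NASH over wild-type was 2.35 for snRNAs, 7.66 for snoRNAs, 2.41 for U2 and 11.3 for U3, and db over ob was 0.0686 for snRNAs and 0.0589 for snoRNAs. With U3 left out of the sum, an alternative chosen after seeing the data, snoRNAs in NASH turned to 0.737 over wild-type.

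Counts of members past 2-fold moved most. Without a filter they cover all 3032 snRNA and snoRNA features, not the 52 members alone, and 2852 of these had no count. They were then 85 higher and 3 lower in ob and 16 lower in NASH. In db they were 11 lower against wild-type and 85 lower against ob. With a filter of 20 counts they were 28 higher in ob, 5 lower in NASH, 3 lower in db against wild-type and 28 lower in db against ob, where fewer members are left. With the interval also excluding equality they were 33 higher in ob, 4 higher and 0 lower in NASH, and 0 higher and 0 lower in db. A pseudocount of 5 CPM gave 5 higher and 1 lower in NASH and 1 higher and 1 lower in db. Counts of 0 set to 3 gave 4 lower in NASH and 1 higher and 14 lower in db. Library totals without the mtDNA-like features gave 17 higher in NASH and 8 lower in db, and TMM factors without ob gave 8 lower in db. Except for the interval rule, no share of all features was taken under these settings, so nothing is read from these counts. The cause of these moves was not tested. The other 320 alternative values stayed within the main interval or within 1.5 times the main count. Depth limits U1, U4, U5, SNORA, SNORD, SCARNA and snoU89 in NASH, db and wild-type, each at 22 counts or fewer. It also limits the ratios of U2, with 16 counts in NASH and 15 in wild-type, and of U3, with 19 in wild-type.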

Other observations

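In db the hepatocyte markers summed to 124208 CPM, against 36625 CPM in ob and 50740 CPM in wild-type, while Neat1, the scaffold RNA of nuclear paraspeckles, had 109 counts in db, against 7450 in ob and 7 in wild-type. Gas5, a snoRNA host transcript, had 17 counts in ob, 3 in NASH, 1 in db and 2 in wild-type, and Snhg3, another, had 18 in ob and 1 in each of NASH, db and wild-type. Eef2, a host transcript that codes for a translation factor, had 149 counts in ob, 146 in NASH, 152 in db and 115 in wild-type.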
